A study of Sus scrofa with 12 samples.

Results

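Motile cilia genes were examined in the endometrium, the inner lining of the uterus, of gestating sows. The genes were taken by name: every gene of the deposited table whose symbol begins with DNAH (dynein axonemal heavy chains), DNAI (dynein axonemal intermediate chains), RSPH (radial spoke heads) or CFAP (cilia and flagella associated proteins) followed by a digit, together with FOXJ1. This gave 48 of the 20674 genes of the table, made up of 26 CFAP, 13 DNAH, 2 DNAI and 6 RSPH genes and FOXJ1. Of these, 47 were among the 15351 genes that passed the filter on low counts, and CFAP53 did not.

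The sows were Landrace × Yorkshire animals in their second parity or the one after it that received one of 4 diets from breeding through the 114 days of gestation. The control diet L − N held 3.73% crude fiber, L + N held 3.73% crude fiber and 0.05% N-carbamylglutamate (NCG, an analog of N-acetylglutamate, which activates arginine synthesis), H − N held 7.46% crude fiber, and H + N held 7.46% crude fiber and 0.05% NCG. Besides more crude fiber, the H − N and H + N diets held less corn and contained soybean bran, beet pulp and soybean oil. Fiber therefore cannot be told apart from these ingredients. Polyadenylated RNA of the endometrium was sequenced in 12 libraries, 3 per diet. The titles number the libraries 1 to 3 within a diet, and nothing in the labels says whether each came from its own sow, so the p-values measure the spread between these libraries.

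A motile cilium beats because dynein arms slide the microtubule doublets of its core, the axoneme, past each other. Outer dynein arms set most of the beat frequency, inner arms shape the bend, radial spokes carry signals from the central pair of microtubules to the arms, and many CFAP proteins line the doublets, form the projections of the central pair or anchor the arms. FOXJ1 is the forkhead transcription factor that switches on this set of genes in cells that build motile cilia. In the uterus, ciliated cells are a minority of the lining and gland epithelium, lying among secretory cells.

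The library totals ranged from 14369781 to 19309724 counts, and the 48 genes together took between 0.0379% and 0.184% of them. Chi-square statistics per gene between replicates of a diet ranged from 22.8 to 98.6, so no pair within a diet was a repeat of the same library. Pairs across diets were not compared in this way. Epithelial cells were present in every library: EPCAM, an adhesion molecule of epithelium, ranged from 187 to 374 CPM (counts relative to the library total, after scaling by the trimmed mean of M values, TMM). As these are bulk samples, fewer ciliated cells and less RNA per ciliated cell cannot be told apart. FOXJ1, the marker of ciliated cells, was measured in all 12 libraries, from 24.2 CPM in library 2 of L − N to 147 CPM in library 3 of H − N.

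Compared per length, as FPKM (fragments per kilobase of gene, scaled to library size), FOXJ1 had the highest mean of the 48 genes, 28.4 ± 12.8 FPKM (SD over the 12 libraries), at the 85.1th percentile of the genes tested. CFAP20, which closes the junction of the doublet microtubules and is also built into non-motile cilia, followed at 25.0 FPKM. CFAP45, a protein inside the doublets, stood at 16.4 FPKM, RSPH1, a radial spoke head protein, at 16.2 FPKM, CFAP36 at 14.9 FPKM and CFAP97 at 9.86 FPKM. CFAP52 (9.74 FPKM), CFAP161 (9.47 FPKM), CFAP126 (8.26 FPKM), CFAP100 (7.79 FPKM), CFAP157 (6.42 FPKM) and CFAP69 (6.02 FPKM) completed the 12 highest members, and CFAP70 (4.33 FPKM) and CFAP65 (4.31 FPKM) were the next CFAP genes. The long heavy chains lay lower, with DNAH10 at 3.60 FPKM, DNAH5 at 3.55 FPKM and DNAH1 at 1.19 FPKM. In all, 41 members had a mean above 1 FPKM and 14 a mean above 5 FPKM, and the median of the 47 tested members was 2.94 FPKM against 6.98 FPKM for all genes tested. The members were also long, with a median of 4823.5 bases over the 48 genes, 15185 bases over the DNAH genes and 3051 bases over the whole table.

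A few members were close to 0. DNAH8, an outer arm heavy chain of the sperm flagellum, received between 0 and 13 counts per library and 84 in all. DNAH14 received between 0 and 29 counts and 91 in all, with 29 of them in library 2 of H + N. CFAP53 received between 0 and 6 counts and 30 in all, with more than 3 counts in 3 of the 12 libraries. RSPH6A, the counterpart of RSPH4A in sperm, received 229 counts in all, and DNAH17, another outer arm heavy chain of sperm, had a mean of 0.362 FPKM. Of 8 spermatid marker genes set beside them, 1 passed the low-count filter, AKAP4, at 0.690 to 11.8 CPM, and it was higher in H − N than in L − N (log2 fold change 2.16 ± 0.50, SE, adjusted p = 0.0354 by edgeR).

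The 48 genes were spread over 16 chromosomes of Sscrofa11.1, so they did not share a locus. The most on any chromosome were the 7 on chromosome 14, where CFAP43 (positions 115073529 to 115201965, minus strand) and CFAP58 (positions 115292386 to 115410852, plus strand) lay 90.4 kb apart. FOXJ1 lay on chromosome 12 at positions 5307370 to 5312117, plus strand, and CFAP69 on chromosome 9 at positions 70373422 to 70430383, plus strand. DNAH12 lay on the minus strand of chromosome 13 between positions 39148160 and 39395266. The gene spans of 14 members overlapped another gene, among them DNAI1 with ENHO, RSPH1 with SLC37A1, DNAH7 with SLC39A10, CFAP43 with SFR1 and CFAP44 with BOC, all on the opposite strand, and RSPH6A with SYMPK on the same strand. Whether strand was used in counting is not given in the sources used here, so part of the counts of these genes may belong to the partner. FOXJ1, CFAP58, CFAP69 and DNAH12 overlapped no other gene. Gene Ontology terms in the deposited table named cilium, axoneme, flagellum or sperm for 31 of the 35 members that carried any term, against 4.22% of the 17087 genes that carried one.

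**Figure D1:**
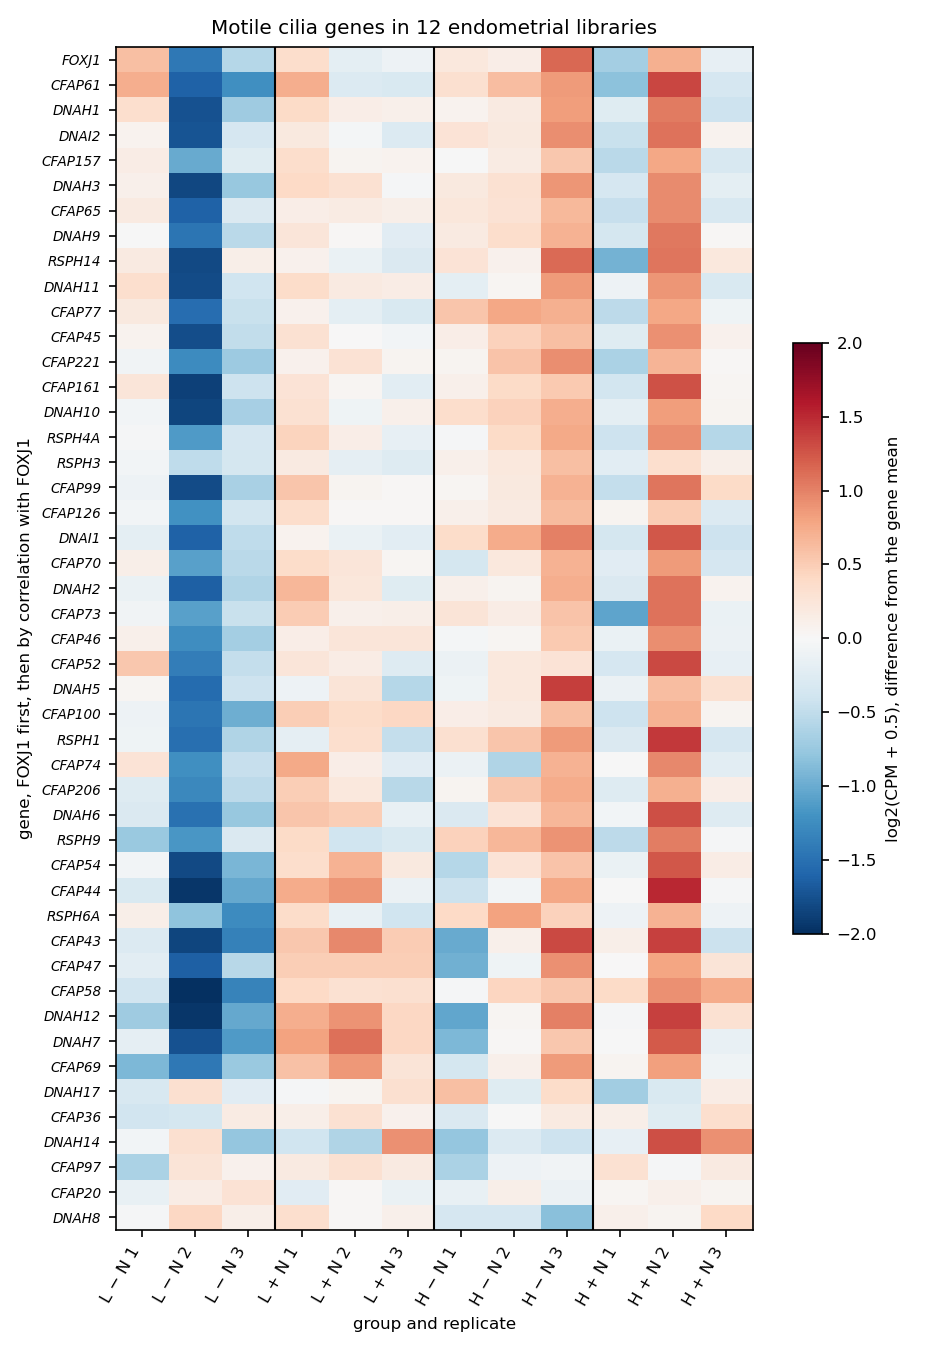
Level of the 47 tested motile cilia genes in each of the 12 libraries (columns, 3 per diet), drawn as log2(CPM + 0.5) minus the mean of the gene over the libraries, with colors saturating at 2 and -2. Genes (rows) are ordered by their correlation with FOXJ1, and the column of library 2 of L − N is blue in nearly all rows down to CFAP69, while the columns of library 3 of H − N and library 2 of H + N are red.

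Across the libraries, most of the genes moved as a block, and single libraries carried much of that movement. Library 2 of L − N held the lowest value of the 12 libraries in 40 of the 47 tested members, against 11.6% of all genes tested. Library 2 of H + N held the highest value in 32 members (6.15% of all genes tested) and library 3 of H − N in 8 (10.3% of all genes tested). The median over the members of the log2 CPM difference from the gene's own mean was -0.06, -1.53 and -0.55 in the 3 L − N libraries. The L + N libraries stood at 0.36, 0.15 and 0.03, those of H − N at 0.07, 0.20 and 0.72, and those of H + N at -0.25, 0.95 and -0.01. Library 1 of L − N therefore lay among the libraries of the other diets, and libraries 2 and 3 of L − N lay below them. The replicates of L − N and of H + N differed by more than 1 unit on the log2 scale. The summed CPM of the members ran from 402 to 965 in L − N, from 939 to 1186 in L + N, from 945 to 1594 in H − N and from 827 to 1771 in H + N, so the range of L − N overlapped that of every other diet. The heat map of the 47 genes shows library 2 of L − N, library 3 of H − N and library 2 of H + N as the columns of strongest color.

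FOXJ1 itself did not separate the diets. It was measured at 100.5, 24.2 and 44.5 CPM in L − N, at 84.8, 57.8 and 62.1 CPM in L + N, at 77.0, 72.5 and 147 CPM in H − N, and at 41.5, 109 and 59.0 CPM in H + N. The 4 diets overlapped, with group means of 56.4 ± 39.5, 68.2 ± 14.5, 98.9 ± 41.8 and 69.9 ± 35.2 CPM (SD, n = 3 each). Against L − N, the log2 fold change of FOXJ1 was 0.27 ± 0.49 (SE) for L + N, 0.81 ± 0.49 for H − N and 0.31 ± 0.49 for H + N, with adjusted p-values of 0.757, 0.338 and 0.725 by edgeR's quasi-likelihood test. The main effect of NCG on FOXJ1 was -0.11 ± 0.35, the main effect of fiber 0.42 ± 0.35 and the interaction -0.77 ± 0.69, with adjusted p-values of 0.874, 0.535 and 0.654 in edgeR.

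The remaining heavy chains and spoke genes were described by their range over the libraries. Among outer arm genes, DNAH9 ran from 16.6 to 96.7 CPM over the 12 libraries (median 47.0 CPM), DNAH11 from 7.40 to 49.8 CPM and the intermediate chain DNAI2 from 5.27 to 40.03 CPM, each with its lowest value in library 2 of L − N and its highest in library 2 of H + N. Among inner arm genes, DNAH10, one of the heavy chains of the double-headed arm, ran from 13.5 to 89.1 CPM, its partner DNAH2 from 5.64 to 39.98 CPM, and the single-headed chains DNAH1, DNAH3 and DNAH6 from 6.33 to 46.3, from 9.78 to 69.7 and from 8.28 to 60.1 CPM, with the same 2 libraries at the ends. RSPH4A, of the spoke head, ran from 11.3 to 49.2 CPM between the same libraries. RSPH3, of the spoke stalk, ran from 7.15 to 16.0 CPM and RSPH14 from 1.38 to 13.9 CPM, both highest in library 3 of H − N. The largest log2 fold change against L − N among these genes was that of DNAH6 in H + N, 1.30 ± 0.45 (adjusted p = 0.0876, edgeR). DESeq2 called DNAH6 in that comparison and DNAH10 in H − N against L − N. When library 1 of L − N was dropped, edgeR called DNAH10 in all 3 comparisons with L − N and DNAH3 in H − N.

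The first diet comparison asked what NCG did on the low-fiber diet and set L + N against L − N. A gene was called differentially expressed at an adjusted p-value below 0.05 and an absolute log2 fold change above 1. Of the 47 members, 3 were called higher in L + N, CFAP69, CFAP58 and DNAH12, and 0 lower, which is 6.38% of the members, whereas 3.32% of all genes tested were called higher. At an adjusted p-value below 0.05 alone the members were the same 3, against 5.97% of all genes tested. CFAP69, a protein of the central pair apparatus, was measured at 9.36, 6.33 and 10.5 CPM in L − N and at 27.0, 33.2 and 21.5 CPM in L + N. The lowest L + N library was above the highest L − N library, and the log2 fold change was 1.64 ± 0.35 (SE, adjusted p = 0.0183, edgeR). CFAP58, a coiled-coil protein needed for building the flagellum, was measured at 9.55, 2.13 and 4.70 CPM in L − N and at 16.7, 15.6 and 15.9 CPM in L + N. Its groups did not overlap either, and the L + N libraries were close together, with a log2 fold change of 1.56 ± 0.40 (adjusted p = 0.0360, edgeR). DNAH12, a heavy chain of the single-headed inner dynein arms, was measured at 5.79, 2.19 and 4.57 CPM in L − N and at 16.5, 18.7 and 13.3 CPM in L + N. Its log2 fold change was 1.95 ± 0.55, close to the threshold (adjusted p = 0.0483, edgeR). DNAH7, another inner arm heavy chain, had 12.2, 3.76 and 6.04 CPM in L − N and 24.6, 30.4 and 18.6 CPM in L + N, and missed the threshold (log2 fold change 1.74 ± 0.52, adjusted p = 0.0558, edgeR).

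Over the 47 members, the median log2 fold change of L + N against L − N was 0.65, against -0.02 over all genes tested, and 45 members had a value above 0 (47.7% of all genes). The median was 0.41 when library 2 of L − N was dropped and 1.08 when library 1 of L − N was. In 15 members every L + N library was above every L − N library (18% of all genes), and 10 members had an unadjusted p below 0.05 with higher values (14% of all genes). Of the 8 tested inner arm heavy chains, all had a log2 fold change above 0 and 3 an unadjusted p below 0.05. Of the 7 outer arm genes 6 had a value above 0, and of the 6 radial spoke genes all did, with 0 below an unadjusted p of 0.05 in either group. DESeq2 called 7 members in this comparison, CFAP100, CFAP43, CFAP44 and DNAH7 beside the same 3 genes, and it called 4.38% of the genes it tested higher. The edgeR count changed when 1 library was dropped. It was 9 when library 1 of L − N was dropped (3.7% of all genes tested), 5 when library 2 of H + N was (3.35%), 1 when library 1 or 3 of L + N or library 2 of H − N was, and 0 when library 2 or 3 of L − N or library 2 of L + N was. Over all genes, calls in either direction numbered 613 with all libraries. They numbered 543 without library 2 and 143 without library 3 of L − N, and 183 without library 2 of L + N. Over the 12 fits that drop 1 library CFAP69 was called in 9, CFAP58 in 6 and DNAH12 in 4.

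The effect of the high-fiber diet without NCG was read from H − N set against L − N. Here edgeR called 0 of the 47 members, whereas 0.892% of all genes tested were called higher, and 1.56% at an adjusted p-value below 0.05 alone. An unadjusted p below 0.05 with higher values in H − N was reached by 22 members (11.3% of all genes tested) and with lower values by 1, DNAH8 (13.1% of all genes tested). The median log2 fold change was 0.94 over the members, 0.60 without library 2 and 1.40 without library 1 of L − N, and 0.03 over all genes tested. Of the members, 43 members lay above 0 (53.5% of all genes), and in 22 members every H − N library was above every L − N library (12.8% of all genes). CFAP58 was measured at 12.3, 17.2 and 18.6 CPM in H − N, all above the 3 L − N libraries, and had the smallest adjusted p-value (log2 fold change 1.55 ± 0.41, adjusted p = 0.0503, edgeR). CFAP69 followed with 14.0, 19.2 and 32.7 CPM in H − N (log2 fold change 1.33 ± 0.35, adjusted p = 0.0514, edgeR). RSPH9, a radial spoke head protein, was measured at 3.06, 2.13 and 4.37 CPM in L − N and at 7.67, 8.88 and 10.5 CPM in H − N (log2 fold change 1.50 ± 0.44, adjusted p = 0.0695, edgeR). The RSPH9 groups did not overlap, and the adjusted p-value was above the threshold.

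In H − N, an unadjusted p below 0.05 with higher values was reached by 3 of 7 outer arm, 5 of 8 inner arm and 4 of 6 radial spoke genes. DNAI1, an intermediate chain that holds the outer arm together, was measured at 7.89, 2.63 and 6.25 CPM in L − N and at 11.9, 15.5 and 18.7 CPM in H − N (log2 fold change 1.46 ± 0.49, adjusted p = 0.0997, edgeR). DNAH5, the outer arm heavy chain whose loss causes primary ciliary dyskinesia, was measured at 56.3, 18.6 and 41.1 CPM in L − N and at 51.7, 63.7 and 143 CPM in H − N (log2 fold change 1.15 ± 0.44, adjusted p = 0.140, edgeR). The DNAH5 groups overlapped, and library 3 of H − N stood far above the other 2 libraries of its diet. RSPH1, at 16.9, 6.02 and 11.8 CPM in L − N, reached 22.6, 26.6 and 32.9 CPM in H − N (log2 fold change 1.24 ± 0.50, adjusted p = 0.152, edgeR). By role, the median log2 fold change was 0.98 over 7 outer arm genes, 1.04 over 8 inner arm genes, 1.07 over 6 radial spoke genes and 0.92 over 25 CFAP genes. DESeq2 called 8 members higher, CFAP100, CFAP206, CFAP221, CFAP58, CFAP69, DNAH10, DNAI1 and RSPH9, with 2.23% of the genes it tested called higher. In edgeR, 10 were called when library 1 of L − N was dropped (2.83% of all genes tested), 3 when library 2 of H + N was (0.89%), and 0 when any other library was. Over all genes, calls in either direction numbered 446 with all libraries. They fell to 6 without library 3 of L − N and to 0 without library 1 of H − N. In the other fits with 0 members they ran from 122 to 453.

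For both additions together, H + N was set against L − N, and 2 members, CFAP58 and CFAP69, were called higher (2.29% of all genes tested, or 4.31% at an adjusted p-value below 0.05 alone) and 0 lower. These 2 genes were 4.26% of the members. CFAP58 was measured at 16.6, 24.01 and 21.5 CPM in H + N, all above the 3 L − N libraries, with a log2 fold change of 1.92 ± 0.41 (adjusted p = 0.0250, edgeR). CFAP69 was measured at 18.7, 32.05 and 16.8 CPM in H + N, all above the 3 L − N libraries (log2 fold change 1.37 ± 0.35, adjusted p = 0.0396, edgeR). This call of CFAP69 was kept in 2 of the 12 fits that leave out 1 library (edgeR adjusted p up to 0.111) and was lost with the replicate block. CFAP58 was called in 9 of the 12 and with the replicate block. Both calls were lost in the fit of 2 groups, which called 0 members. DNAH12 was measured at 9.69, 26.2 and 12.2 CPM in H + N, above L − N in every library, and missed the threshold (log2 fold change 1.94 ± 0.55, adjusted p = 0.0534, edgeR). CFAP44, which tethers an inner arm dynein to the doublet together with CFAP43, was measured at 19.8, 5.96 and 11.8 CPM in L − N and at 24.3, 70.8 and 23.97 CPM in H + N (log2 fold change 1.67 ± 0.54, adjusted p = 0.0746, edgeR). Here library 2 of H + N stood far above the other 2 of its diet.

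The median log2 fold change of the 47 members in H + N against L − N was 0.90, against 0.02 over all genes tested, and 45 members lay above 0 (51.7% of all genes). The median was 0.34 when library 2 of H + N was dropped and 1.32 when library 1 of L − N was. In 8 members every H + N library was above every L − N library (15.2% of all genes), and 20 members had an unadjusted p below 0.05 with higher values (14.6% of all genes). DESeq2 called 8 members, CFAP43, CFAP44, CFAP54, CFAP58, CFAP69, DNAH12, DNAH6 and DNAH7, with 3.82% of the genes it tested called higher. In edgeR, 9 were called when library 1 of L − N was dropped (2.92% of all genes tested), 1 when library 2 of L − N, H − N or H + N or any of the 3 L + N libraries was, and 0 when library 3 of L − N or library 1 or 3 of H + N was. Over all genes, calls in either direction numbered 549 with all libraries. They fell to 4 without library 3 of L − N, and to 1 and 186 without libraries 1 and 3 of H + N. All 3 comparisons use the same 3 L − N libraries, so they are not independent of each other. The members in which all 3 L − N libraries lay below the 9 others were CFAP58, CFAP69 and DNAH6, or 6.38% of the members against 4.28% of all genes tested.

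**Figure D2:**
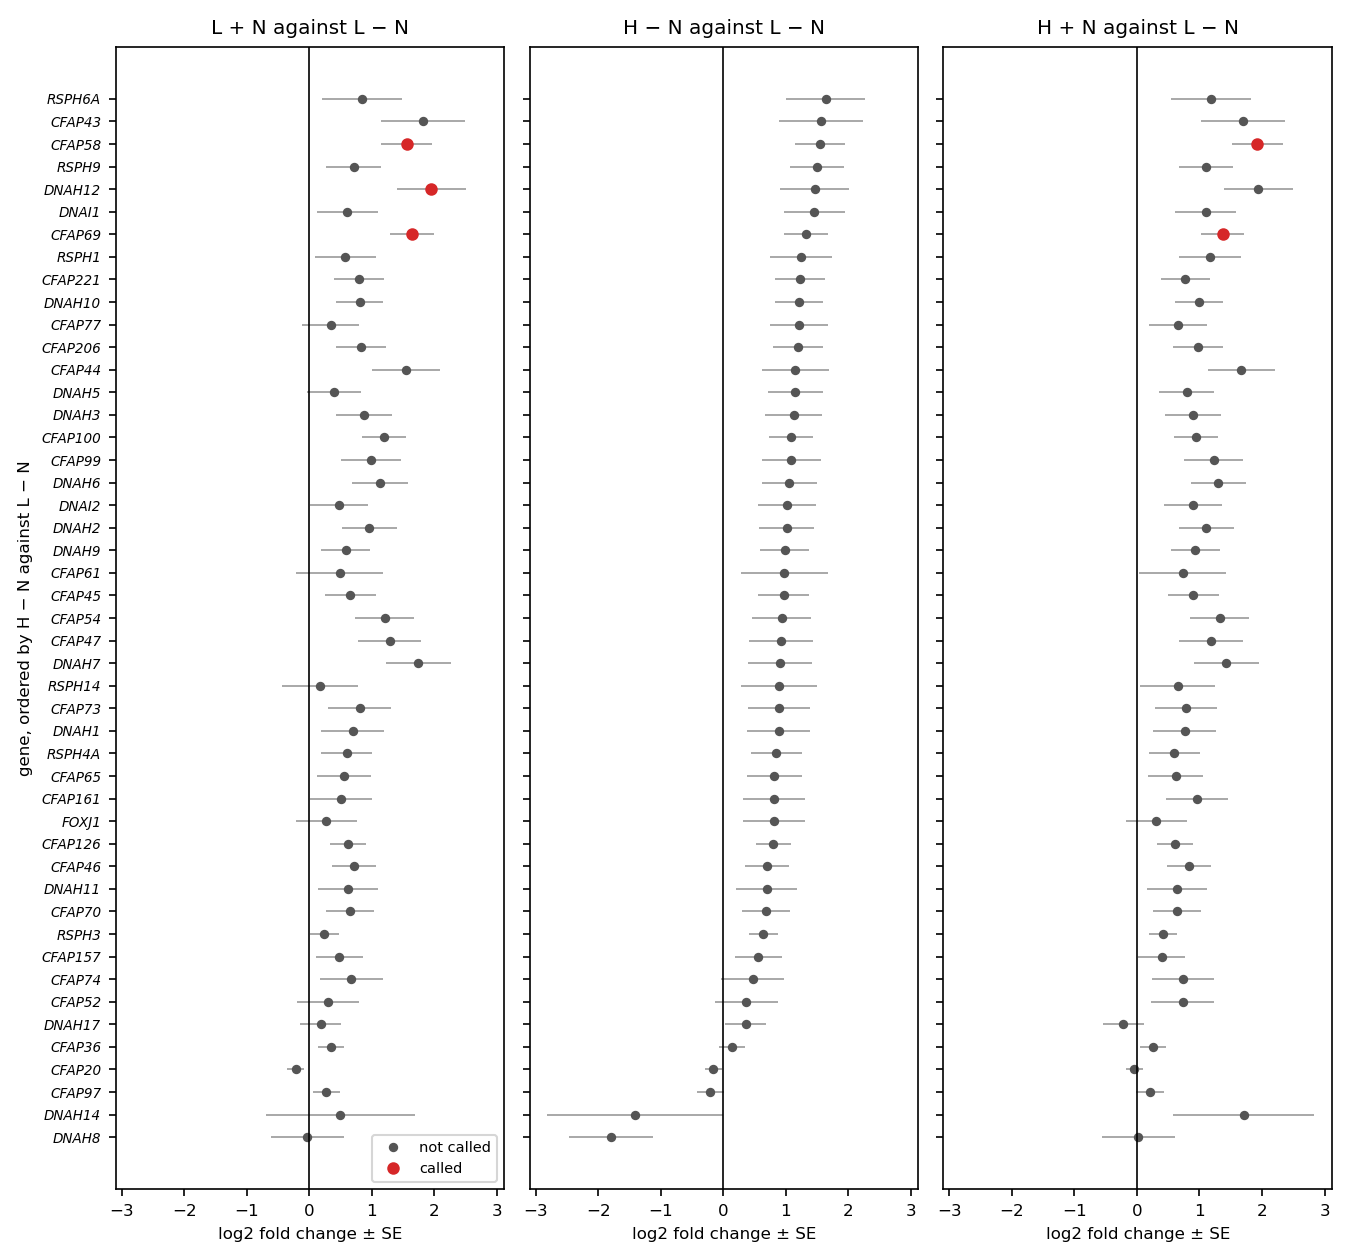
Log2 fold change ± SE (horizontal axis) of each of the 47 tested motile cilia genes (vertical axis) for each of the 3 other diets against L − N, from edgeR, with n = 3 libraries per diet. Red points mark the genes called at an adjusted p-value below 0.05 and a log2 fold change above 1, which number 3, 0 and 2 in the panels from left to right, and most other points lie right of 0.

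**Figure D3:**
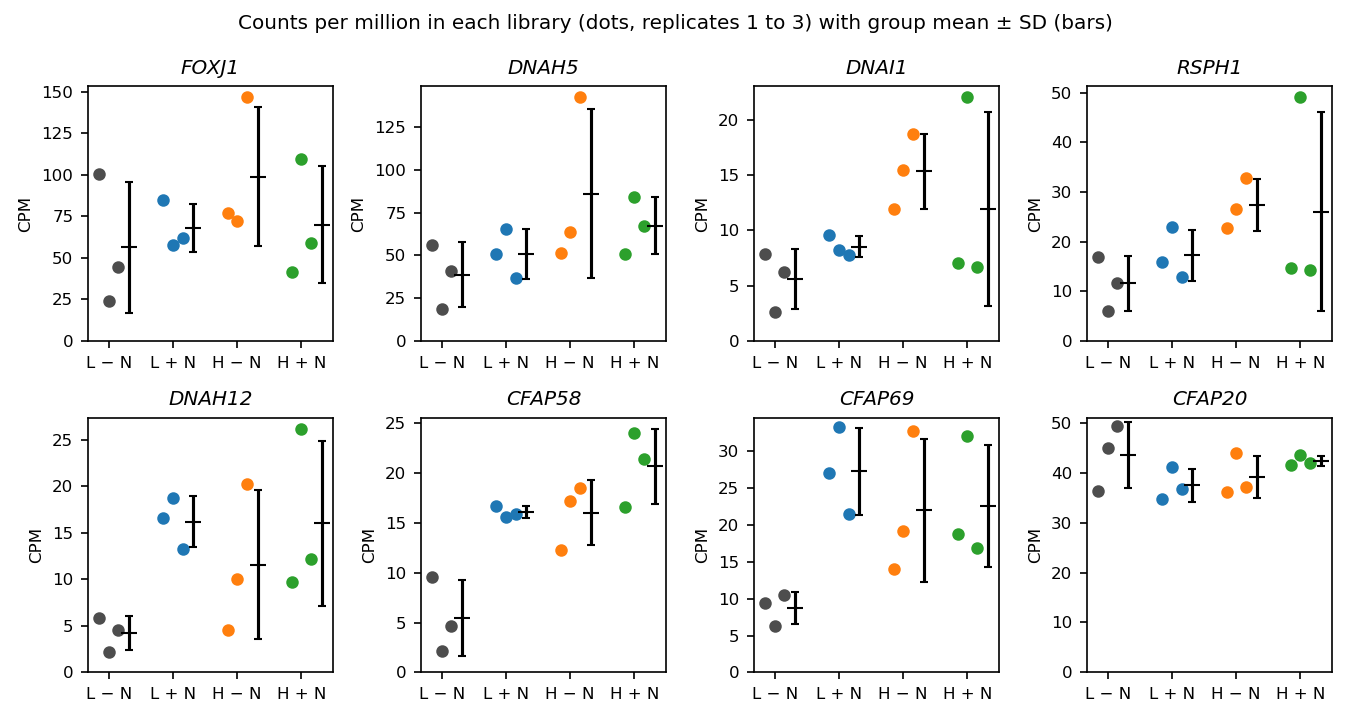
CPM of 8 motile cilia genes in each library (dots) with the mean ± SD of the 3 libraries of each diet (bars beside the dots). CFAP58 and CFAP69 show the L − N libraries below all others, FOXJ1 and DNAH5 show overlapping diets, and CFAP20 stays between 34.6 and 49.4 CPM throughout.

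Neither main effect nor the interaction called a member in edgeR. For NCG, averaged over both fiber levels, 0 members were called against 1.67% of all genes tested called higher (5.67% at an adjusted p-value below 0.05 alone), 8 had an unadjusted p below 0.05 with higher values (13.2% of all genes), 42 lay above 0 (46.9% of all genes), and the median was 0.29 against -0.03 over all genes. This median was 0.06 without library 2 of H + N and 0.52 without library 1 of L − N. The smallest adjusted p-values were those of CFAP69 (log2 fold change 0.84 ± 0.24, adjusted p = 0.0615, edgeR) and CFAP58 (0.96 ± 0.28, adjusted p = 0.0622, edgeR). DESeq2 called CFAP44, DNAH12 and DNAH7 for NCG (1.99% of the genes it tested), and edgeR called 2 members when library 1 of L − N (1.5% of all genes) or library 3 of H − N (1.98%) was dropped. For fiber, averaged over both NCG levels, 0 members were called against 0.00651% of all genes tested called higher, 12 had an unadjusted p below 0.05 with higher values (9.3% of all genes), DESeq2 called 0 members (305 of all genes in either direction), 43 lay above 0 (53.7% of all genes), and the median was 0.53 against 0.02 over all genes. Without library 2 of H + N it was 0.26, and without library 1 of L − N 0.78. CFAP58 again had the smallest adjusted p-value (log2 fold change 0.96 ± 0.28, adjusted p = 0.115, edgeR), followed by RSPH9 (0.95 ± 0.30, adjusted p = 0.135, edgeR). For fiber, CFAP58 and RSPH6A were called when library 1 of L − N was dropped, which makes 2 members (0.681% of all genes).

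The interaction, which asks whether NCG acted differently on the high-fiber and the low-fiber diet, had a median of -0.82 over the members and -0.01 over all genes tested. The members' median was -1.33 without library 2 of H + N and -0.48 without library 2 of L − N. It was above 0 in 5 members (49.4% of all genes tested), and its calls were 0 in edgeR and 0 in DESeq2 for the members. Over all genes, edgeR called 0% of those tested and DESeq2 called 187 genes in either direction. An unadjusted p below 0.05 with lower values was reached by 3 members, CFAP69, CFAP100 and CFAP221 (5.33% of all genes tested). CFAP69 had the smallest adjusted p-value (-1.60 ± 0.49, adjusted p = 0.275, edgeR), and 2 members, CFAP100 and CFAP58, were called lower when library 1 of L − N was dropped (0.546% of all genes). Within the high-fiber diet, H + N against H − N gave a median of -0.07 (0.01 over all genes), 20 members above 0 (51% of all genes) and 0 calls in edgeR and in DESeq2, and the members' median was 0.16 without library 3 of H − N. An unadjusted p below 0.05 with higher values in H + N was reached by 2 members, the low-count genes DNAH8 and DNAH14 (5.35% of all genes), and with lower values by 0. Within the NCG diets, H + N against L + N gave a median of 0.12 (0.01 over all genes, and -0.35 over the members without library 2 of H + N), 32 members above 0 (50.9% of all genes) and 0 calls in edgeR and in DESeq2. An unadjusted p below 0.05 was reached by 0 members in either direction, and with higher values by 3.01% of all genes. In these 2 comparisons edgeR called 0% of all genes tested, and DESeq2 called 25 and 2 genes in either direction.

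Most members rose and fell with FOXJ1 from library to library. Pearson's r with FOXJ1 was computed on log2 CPM over the 12 libraries for the 46 other tested members, with a two-sided permutation test of 100000 resamples and Benjamini-Hochberg adjustment over the 46. The resamples shuffled all 12 libraries without regard to diet, so these p-values do not separate differences between diets from differences within them. Of these, 40 were positively correlated at an adjusted p below 0.05, and 31 by Spearman's rho, and 29 had r above 0.8, as had 2.25% of all genes tested. The median r was 0.852, against -0.0135 over all genes. CFAP61, at the base of the radial spokes, was highest (r = 0.935, rho = 0.951, adjusted permutation p = 0.00046 each), followed by the inner arm heavy chain DNAH1 (r = 0.931, rho = 0.888) and the outer arm intermediate chain DNAI2 (r = 0.926, rho = 0.888), with an adjusted permutation p of 0.00046 for r and 0.00199 for rho in both. Without library 2 of L − N and library 3 of H − N, the 2 libraries farthest from the median of FOXJ1, the median r was 0.686. After the mean of each diet was removed, the median r was 0.879, so the relation was also present within diets. This value keeps all 12 libraries, so it does not show a relation within diets apart from those 2. The points share library depth and the mix of cells in each sample.

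The members called against L − N were among those that followed FOXJ1 least of the 40. CFAP69 had r = 0.604 (adjusted permutation p = 0.0416) and rho = 0.420 (adjusted permutation p = 0.189), with r = 0.150 without the 2 libraries. CFAP58 had r = 0.683 (adjusted permutation p = 0.0190) and rho = 0.517 (adjusted permutation p = 0.102), with r = 0.321 without them. DNAH12 had r = 0.645 (adjusted permutation p = 0.0284) and rho = 0.552 (adjusted permutation p = 0.0822), with r = 0.262 without them. For these 3 genes the relation over all libraries rests on the 2 libraries. With those libraries kept, r after removing diet means was 0.664, 0.865 and 0.799 in the same order. DNAH7 (r = 0.642), CFAP47 (r = 0.684), CFAP43 (r = 0.704) and CFAP44 (r = 0.740) lay in the same range.

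**Figure D4:**
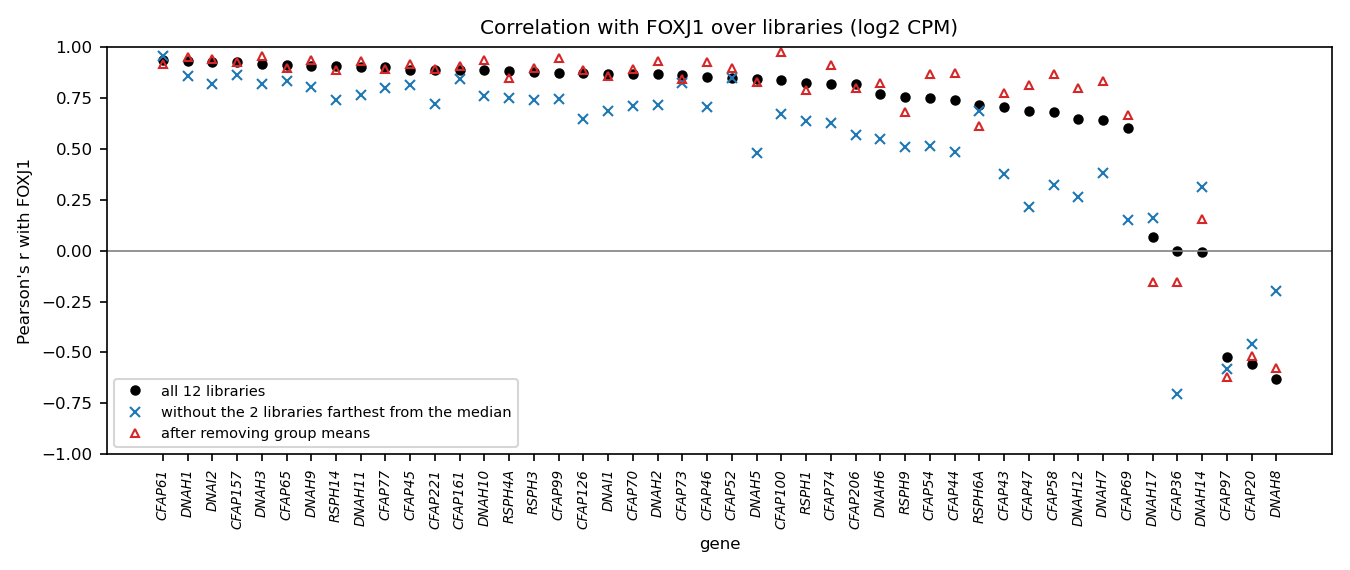
Pearson's r of each of the 46 other tested motile cilia genes (horizontal axis) with FOXJ1 on log2 CPM (vertical axis), over all 12 libraries (black dots), without library 2 of L − N and library 3 of H − N (blue crosses) and after removing diet means (red triangles). Dots lie from 0.935 (CFAP61) down to 0.604 (CFAP69), and 6 genes at the right lie between 0.07 and -0.63.

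A set of 6 members did not follow FOXJ1. CFAP20 (r = -0.56, rho = -0.52), CFAP97 (r = -0.52, rho = -0.73) and CFAP36 (r = 0.000613, rho = -0.13) were among the members with the highest mean FPKM, and DNAH17 (r = 0.07), DNAH14 (r = -0.00473) and DNAH8 (r = -0.63, adjusted permutation p = 0.0375) among those with the lowest. By rank, CFAP97 ran opposite to FOXJ1 (adjusted permutation p = 0.0148 for rho, 0.0899 for r). So did DNAH8, a gene of few counts (rho = -0.63, adjusted permutation p = 0.0452). CFAP20 varied least of the members, with a lowest value of 34.6 CPM and a highest of 49.4 CPM, 1.43 times as high. The coefficient of variation over the 12 libraries was 17.5% for CFAP36 and 20.2% for CFAP97. In contrast, the highest library was 11.9 times the lowest in DNAH12 and in CFAP44, 11.3 times in CFAP58 and 6.08 times in FOXJ1. In library 2 of L − N, the library with the least FOXJ1, CFAP20 stood at 45.0 CPM and CFAP97 at 54.7 CPM, both above their means in H − N.

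The other genes of the ciliary program were taken from lists by role. For 13 tested regulators of multiciliated cells, the median log2 fold change against L − N was 0.91, 0.88 and 0.98 in the order L + N, H − N, H + N, and 4, 2 and 3 of them were called higher. Over all genes tested, 3.32%, 0.892% and 2.29% were called higher in the same order, the shares against which the counts of the lists that follow are read. MYB, which acts early in the program, was called in all 3 comparisons and rose from 7.51, 4.33 and 7.93 CPM in L − N to 14.3, 15.7 and 13.3 CPM in L + N, 11.4, 12.4 and 17.5 CPM in H − N and 12.1, 16.9 and 11.5 CPM in H + N. Its log2 fold changes were 1.13, 1.06 and 1.04, with adjusted p-values of 0.0248, 0.0443 and 0.0392 in edgeR. RFX3, a partner of FOXJ1, rose in L + N (log2 fold change 1.31) and H + N (1.12). PLK4, the kinase that starts centriole formation in all dividing cells as well as in multiciliated cells, rose in L + N (1.67), in H + N (1.42) and with NCG over both fiber levels (1.14, adjusted p = 0.0151, edgeR). DEUP1, a protein of the deuterosome on which ciliated cells multiply their centrioles, rose in L + N (1.67). CCNO, a cyclin needed for the same step, was called in H − N, but from 0.00 to 0.201 CPM in L − N to 0.777, 1.32 and 1.72 CPM, levels of few reads.

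The lists of structural partners of the members had 0 or 1 call each in the 3 comparisons with L − N. The 12 tested dynein assembly factors had medians of 0.15, 0.58 and 0.29 in the same order, and 1 was called in each, DNAAF4, a cytoplasmic factor that preassembles the arms (log2 fold changes 1.41, 1.19 and 1.03). The 15 genes of the docking complex, the molecular ruler and the nexin link had medians of 0.55, 0.92 and 0.70. Among them CCDC39, a strand of the ruler that sets the spacing of inner arms and spokes, was called in L + N (2.41), in H + N (2.49) and with NCG (1.83, adjusted p = 0.0115, edgeR), from 0.564 to 0.672 CPM in L − N, levels of few reads, to 2.23, 5.41 and 2.42 CPM in L + N. CCDC40, of the same list, was measured at 31.7, 8.28 and 14.5 CPM in L − N and at 29.8, 23.7 and 22.4 CPM in L + N. Its values overlapped between these diets and it was not called. The 8 dynein light chains had medians of 0.43, 0.64 and 0.68 and 0 calls in the 3 comparisons. The 17 central pair and spoke partners had medians of 0.70, 0.84 and 0.82, with SPEF2 called in L + N (1.12) and H + N (1.10) and SPEF1 in H − N (1.15). The 15 tested microtubule inner proteins had medians of 0.54, 0.89 and 0.70, with MNS1 called in L + N (2.03), in H + N (1.77) and with NCG (1.40, adjusted p = 0.0143, edgeR) and NME7 in H − N (1.33).

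Genes of intraflagellar transport, which every cilium uses whether it moves or not, had medians of 0.25, 0.44 and 0.36 over 26 tested genes, where the members had 0.65, 0.94 and 0.90. Their calls were 4 in L + N and in H + N and 0 in H − N. KIF3A, a motor subunit of outward transport, was measured at 21.9, 26.9 and 25.1 CPM in L − N and at 64.3, 74.8 and 66.1 CPM in L + N, with a log2 fold change of 1.47 (adjusted p = 0.00818, edgeR). DYNC2H1, the motor of the return path, rose by 1.36 on the log2 scale in L + N, and the tubulin carriers IFT74 and IFT81 by 1.25 and 1.35. KIF3A (1.02, adjusted p = 0.00578) and DYNC2H1 (1.04, adjusted p = 0.00578) were also called with NCG over both fiber levels in edgeR. Only 3 of the 26 genes had r above 0.8 with FOXJ1 and their median r was 0.501, whereas 10 of the 15 microtubule inner proteins did, with a median r of 0.879. The genes with the highest r outside the members were RFX2 (0.952), DNALI1 (0.951), LTBP2 (0.950), ZMYND10 (0.950) and CCDC40 (0.948).

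Markers of the ciliated cell itself had values close to those of the members. The 26 tested markers of ciliated epithelium had a median difference from the gene mean of -1.55 in library 2 of L − N and of 0.82 in library 2 of H + N, with medians of the log2 fold change against L − N of 0.67, 0.95 and 0.81. LRRIQ1 was called in L + N (1.996), in H + N (1.74) and with NCG (1.35, adjusted p = 0.00836, edgeR), and PLCH1 in L + N (1.05) and H − N (1.10). CAPS, a marker of ciliated cells, was measured at 21.4, 4.89 and 16.9 CPM in L − N and at 13.8, 40.5 and 20.4 CPM in H + N.

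Markers of other cells in the tissue moved differently between libraries. The 14 markers of uterine epithelium had a median difference of 0.02 in library 2 of L − N and 0.05 in library 2 of H + N, where the members stood at -1.53 and 0.95, and -0.74 in library 3 of L − N. Their summed level ran from 1137 to 1669 CPM in L − N, 1660 to 1756 CPM in L + N, 1790 to 2650 CPM in H − N and 1415 to 1579 CPM in H + N, and 1 of 14, GRHL2, was called, in H − N. The median log2 fold change of these 14 against L − N was 0.28 for L + N, 0.47 for H − N and 0.09 for H + N. Values above 0 were found for 11, 12 and 10 of them in the same order. An unadjusted p below 0.05 with higher values was reached by 2, 7 and 1 of the 14 in edgeR, and by 10, 22 and 20 of the 47 members. Higher values with the H − N diet were therefore not limited to cilia genes. In 2 of the 14, FOXA2 and SOX17, library 2 of L − N held the lowest value, as it did in most members. FOXA2, a transcription factor of the uterine glands, was measured at 43.0, 5.77 and 15.8 CPM in L − N and at 15.1, 35.7 and 15.3 CPM in H + N, and SOX17 at 27.5 CPM in library 2 of L − N. The 11 leukocyte markers stood highest in library 2 of L − N (0.89), with a summed level of 1306 to 2075 CPM in L − N, 658 to 1257 CPM in L + N, 540 to 914 CPM in H − N and 688 to 954 CPM in H + N, and 2, 4 and 3 of them were called lower in L + N, H − N and H + N, against 0.671%, 2.01% and 1.28% of all genes tested. The called genes were CD14 and CD163 in all 3, CSF1R in H − N and H + N, and CD68 in H − N. Other markers of the list, such as CD3E, CD2 and CD79A, were not called, and 4, 3 and 3 of the 11 lay above 0. The 15 markers of dividing cells stood at -1.20, -0.23 and -1.52 in L − N and between 0.37 and 0.82 in L + N and H + N, with 11, 1 and 10 called higher in the same order and 8 with NCG. The 8 endothelial markers ran from 1180 to 1713 CPM in L − N and from 835 to 1307 CPM in the other diets together, with PECAM1 called lower in L + N. Of the 11 stromal markers, HOXA10 was called higher in L + N and H + N and VIM lower in H − N and H + N. The part of these cell types in the differences of the cilia genes was not tested.

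Markers of neighboring tissues were low. OVGP1, the defining glycoprotein of the oviduct, was measured at 0.627 to 2.51 CPM in 11 libraries and at 12.7 CPM in library 3 of H − N, the library with the highest FOXJ1. Of 5 markers of cervical and squamous epithelium in the table, 2 passed the filter, with a summed level of the list of at most 14.6 CPM in any library. The median difference of these 2 from the gene mean was lowest in library 2 of L − N (-1.89) and highest in library 2 of H + N (1.34). Those libraries also held the ends for most members, but in library 3 of H − N the 2 markers stood at -1.31. Of 6 trophoblast markers, 3 passed the filter, 1 had no count in any library, the sum was at most 17.5 CPM, and ELF5 was called higher in H + N. The part of these tissues in the levels of the cilia genes was not tested.

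**Figure D5:**
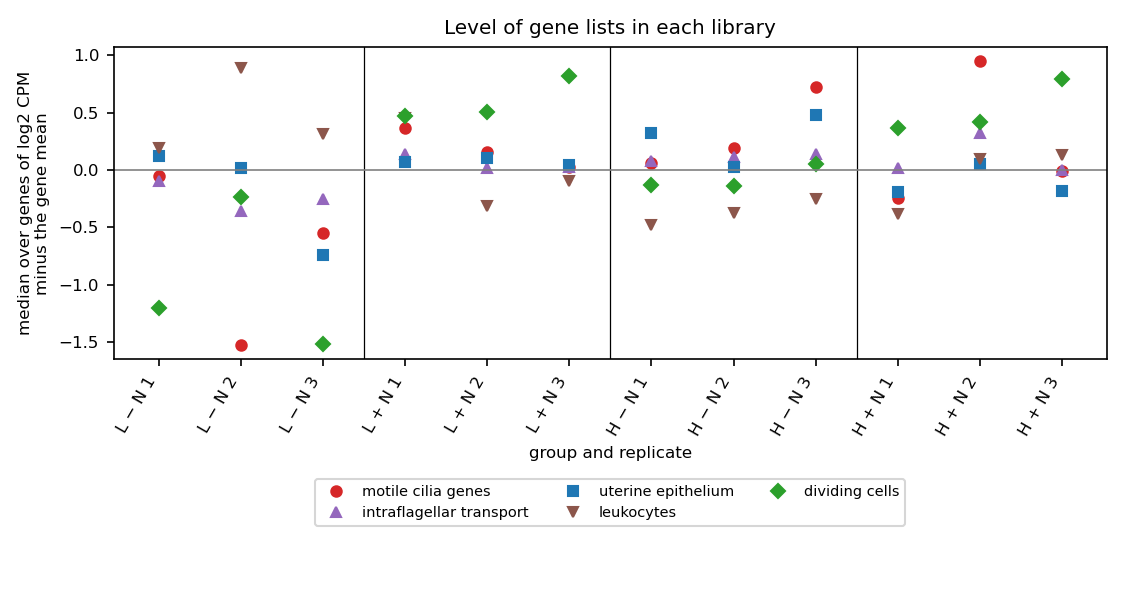
Median over the genes of 5 lists of log2 CPM minus the mean of each gene (vertical axis) in each of the 12 libraries (horizontal axis). In library 2 of L − N the motile cilia genes lie at -1.53 while uterine epithelium lies at 0.02 and leukocytes at 0.89, and in library 2 of H + N the motile cilia genes lie at 0.95 with uterine epithelium at 0.05.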

How the data were processed

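The authors deposited, per the file headers, a single table that gives, for every gene, raw read counts and FPKM values in the 12 endometrial libraries, with gene coordinates on Sscrofa11.1 and Gene Ontology terms. The submitters' processing notes name fastp 0.22.0, HISAT2 2.1.0 and HTSeq 0.9.1. The strand setting of the counting is not given in the sources used here. The counts are not normalized, and the FPKM values deposited by the authors were recovered from counts, gene length and library total to within 1.91e-05 percent. Libraries were grouped by the code in their titles (L or H for fiber, N for NCG).

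Counts were filtered with filterByExpr, scaled by TMM and fitted in R 4.3.3 with edgeR 4.0.16 (quasi-likelihood test, limma 3.58.1 loaded), 1 mean per diet over all 12 libraries with 8 residual degrees of freedom and a biological coefficient of variation of 0.269. P-values were adjusted by Benjamini-Hochberg over the 15351 genes tested. A gene was called at an adjusted p-value below 0.05 and an absolute log2 fold change above 1. Log2 CPM used a prior count of 2, or 0.5 as an alternative. Alternatives were DESeq2 1.42.0, RLE scaling, no filter, the replicate number as a block, fits of 2 groups only, and leaving out each library in turn. The scripts were tested on simulated data. The totals give each gene counting error only, and genes under 3 counts in a library were treated as at the floor.

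Named genes were FOXJ1, called members, the DNAH, DNAI and RSPH families, the 12 CFAP genes highest in FPKM, the CFAP genes with the smallest p-values, members near the floor, and called or highest genes of the other lists. Of the DNAH, DNAI and RSPH genes, those given by values are the ones the comparisons turn on. Genes beyond this rule were named after their values were seen. The members and the lists were chosen with earlier results of these data known.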

Additional observations from a re-analysis of the deposited data

How the results depend on the processing

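The counts of called members kept their value under no low-count filter and under RLE scaling in all 8 comparisons. With DESeq2 they were 3 for NCG, 7 for L + N, 8 for H − N and 8 for H + N against L − N, and 0 in the other 4. Fits of 2 groups only gave 2 in L + N and 0 in H − N and H + N against L − N, with the spread then estimated from 6 libraries. These fits called 537, 3 and 87 of all genes in either direction. Leaving out 1 library gave 0 to 2 called members for NCG, for fiber and for the interaction, 0 to 9 in L + N, 0 to 10 in H − N and 0 to 9 in H + N against L − N, and 0 in both comparisons with H + N that leave L − N out. The median of the members in H + N against L − N ran from 0.34 (library 2 of H + N dropped) to 1.32 (library 1 of L − N dropped), and that in H + N against H − N from -0.51 to 0.16. FOXJ1, called in no comparison, changed sign when 1 library was left out: NCG -0.35 to 0.25 (0.09 without H − N replicate 3 and 0.02 without H + N replicate 1), L + N against L − N from -0.088 to 0.99, H + N against L − N -0.19 to 1.03 (-0.05 without L − N replicate 2), and H + N against L + N -0.46 to 0.28 (-0.08 and -0.05 without L + N replicates 2 and 3). The causes were not tested. Of 1433 alternatives over 86 single-gene fold changes, 1325 kept direction and side of an adjusted p-value of 0.05, 63 passed it only in the alternative, 36 passed it only in the reported fit, and 9 changed sign. In the reported fit only the 3 calls in L + N and the 2 in H + N against L − N passed it. The 36 losses all fell on these, and most of the 1325 passed in neither fit. Among the alternatives, CFAP69 was called in 14, CFAP58 in 9 and DNAH12 in 8 for L + N. For H + N, CFAP58 was called in 13 and CFAP69 in 5. A prior count of 0.5 moved r with FOXJ1 by at most 0.0196.

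The replicate numbers did not pair the libraries. Over 18 pairs of libraries with the same number, the correlation of deviations from the diet means ran from -0.32 to 0.28 (median -0.04, against 0.03 for pairs with other numbers), 3 pairs were over 0.1, and 3 of 12 libraries correlated best with their own number. With the replicate number as a block, 1 member was called in L + N (CFAP69) and 1 in H + N (CFAP58) against L − N, and 0 elsewhere.

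Depth limits DNAH8, DNAH14, CFAP53 and RSPH6A, whose libraries held at most 36 counts each. With 3 libraries a diet and L − N libraries that differed widely, a member with no call is not shown to be equal between diets. The median difference of the members from the gene mean was -0.06, -1.53 and -0.55 in libraries 1 to 3 of L − N.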
